A study of Rattus norvegicus with 12 samples.

Results

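Genes of protein folding in the endoplasmic reticulum (ER) were followed through ER stress. They are Hspa5 (ENSRNOG00000018294), Hsp90b1 (ENSRNOG00000026963), Calr (ENSRNOG00000003029), Canx (ENSRNOG00000003343) and Pdia4 (ENSRNOG00000006228). They were taken by name and Ensembl identifier, with no threshold on their values, and make up 5 of the 32402 genes in the deposited table. The choice was made with earlier results of these data known. All 5 were among the 12056 genes tested, which averaged 1 FPKM or more. FPKM is the number of fragments per kilobase of transcript, scaled to the size of the library, so levels can be set side by side between genes. The cells were rat oligodendrocyte precursor cells, the cells from which oligodendrocytes, the makers of myelin, arise. They were taken from adult spinal cord and grown in culture to passage 6 at most. Cultures received 5 µM tunicamycin or 0 µM as control, and RNA was taken after 2 h or after 8 h. This gives 4 groups of 3 libraries, 12 in all, from 3 independent experiments. The labels give no strain or sex and no genetic change in any group, and all groups are the same kind of cultured cell. The lineage markers listed for these cells could not be looked up, because the files do not pair gene identifiers with symbols.

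The ER folds the proteins that a cell secretes or puts on its surface. Hspa5, also called BiP, is the Hsp70 chaperone of the ER lumen, and it also binds the stress sensors of the ER membrane. Hsp90b1, also called GRP94, is the Hsp90 chaperone of the same compartment. Calr and Canx, calreticulin and calnexin, are lectin chaperones that hold glycoproteins through a trimmed N-linked glycan, the first soluble in the lumen and the second anchored in the membrane. Pdia4, also called ERp72, is a protein disulfide isomerase. Tunicamycin blocks the first step of N-linked glycosylation, so that unfolded proteins build up, and the unfolded protein response is known to raise the transcription of ER chaperones. One DNA motif through which it does so is the ER stress element, made of the letters CCAAT, a gap of 9 bases and the letters CCACG, where the factors NF-Y and ATF6 bind.

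The promoter sequences of the genes are shown first, because the ER stress element is the feature by which such genes are known to be switched on together. RefSeq windows of the GRCr8 build, from 250 bases before to 50 bases after a gene's start site, matched all 5 symbols. They were searched on both strands for the complete element. Hspa5, Hsp90b1, Calr and Canx held it, and Pdia4 did not. Among all 33469 windows of the same length, 22 held it, or 0.0657%. The element was chosen because it is known for genes of this kind, so these counts are a description and no test. Each matched element is given below as read on its own strand, 5′ to 3′, with the letters required by the motif in capitals and the free gap in lower case.
Hspa5, gene strand: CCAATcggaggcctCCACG
Hsp90b1, gene strand: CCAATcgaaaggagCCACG
Hsp90b1, opposite strand: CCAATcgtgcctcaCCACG
Calr, opposite strand: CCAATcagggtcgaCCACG
Canx, gene strand: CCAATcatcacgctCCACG

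With the first base of the transcript counted as 0, the Hspa5 element ran from −43 to −25. Hsp90b1 was the only one of the 5 with a pair of exact matches. They ran from −176 to −158 on the gene strand and from −72 to −54 on the opposite strand. Variants of the element's letters were not searched for in any of the genes. The Calr element lay from −232 to −214 and the Canx element from −230 to −212. In the table of RefSeq starts used here the Canx window is placed at a start site inside the outermost end of the gene. A match is a description of the letters and not a bound site, and no match says only that these letters are not in this window.

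Whole windows are printed for 3 genes: Hspa5, for which the treated 8 h libraries give no level, Hsp90b1 with its pair of exact matches, and Pdia4 with none. Letters in capitals are every CCAAT and every CCACG on either strand, so that ATTGG and CGTGG mark matches on the opposite strand. The Hspa5 window lies at chr3:38452766-38453065 on the plus strand, the Hsp90b1 window at chr7:23012244-23012543 on the minus strand and the Pdia4 window at chr4:78153142-78153441 on the minus strand, each written along its gene.
Hspa5: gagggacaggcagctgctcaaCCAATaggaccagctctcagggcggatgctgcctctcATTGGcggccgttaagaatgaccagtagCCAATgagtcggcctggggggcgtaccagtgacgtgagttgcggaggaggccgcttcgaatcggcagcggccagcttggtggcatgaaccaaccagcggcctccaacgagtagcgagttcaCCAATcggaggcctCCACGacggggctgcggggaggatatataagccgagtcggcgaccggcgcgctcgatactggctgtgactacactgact
Hsp90b1: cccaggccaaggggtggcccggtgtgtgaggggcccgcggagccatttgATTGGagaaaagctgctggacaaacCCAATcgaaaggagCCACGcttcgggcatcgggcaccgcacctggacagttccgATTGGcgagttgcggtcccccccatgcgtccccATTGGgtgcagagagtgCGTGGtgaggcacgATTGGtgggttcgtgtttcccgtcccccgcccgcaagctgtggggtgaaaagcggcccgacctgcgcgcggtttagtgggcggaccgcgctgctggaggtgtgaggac
Pdia4: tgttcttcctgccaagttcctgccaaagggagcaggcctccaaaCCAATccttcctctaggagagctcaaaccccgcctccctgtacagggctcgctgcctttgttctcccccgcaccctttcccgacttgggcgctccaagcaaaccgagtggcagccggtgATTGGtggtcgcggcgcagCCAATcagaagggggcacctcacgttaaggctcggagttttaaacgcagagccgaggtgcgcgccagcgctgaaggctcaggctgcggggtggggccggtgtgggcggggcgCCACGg

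CCAAT alone was present in all 5 windows, with 5 matches in Hsp90b1, 4 in Hspa5, 3 each in Calr and Pdia4 and 2 in Canx. It was found in 37.5% of all windows. CCACG alone was also present in all 5, against 31.6% of all windows, and in Pdia4 its single match lay at 44 to 48, after the start site and far from any CCAAT. A second motif of the response, ATTGG, a gap of 1 base and CCACG, was in none of the 5 windows and in 0.0508% of all. TGACGTGG, the core of a motif that XBP1 binds, was also in none of the 5, and in 0.595% of all. Beyond these genes, a list of 59 other genes of ER folding and of its sensors and factors was searched, of which 49 had a window. The complete element was in 4 of the 49, or 8.16%: Dnajc3 and Creld2, which work with the ER chaperones, Ero1b, an oxidase that recharges disulfide isomerases, and Xbp1, a transcription factor of the unfolded protein response. The expression of the 59 could not be read, since 0 of them could be paired with an identifier of the deposited table.

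**Figure D1:**
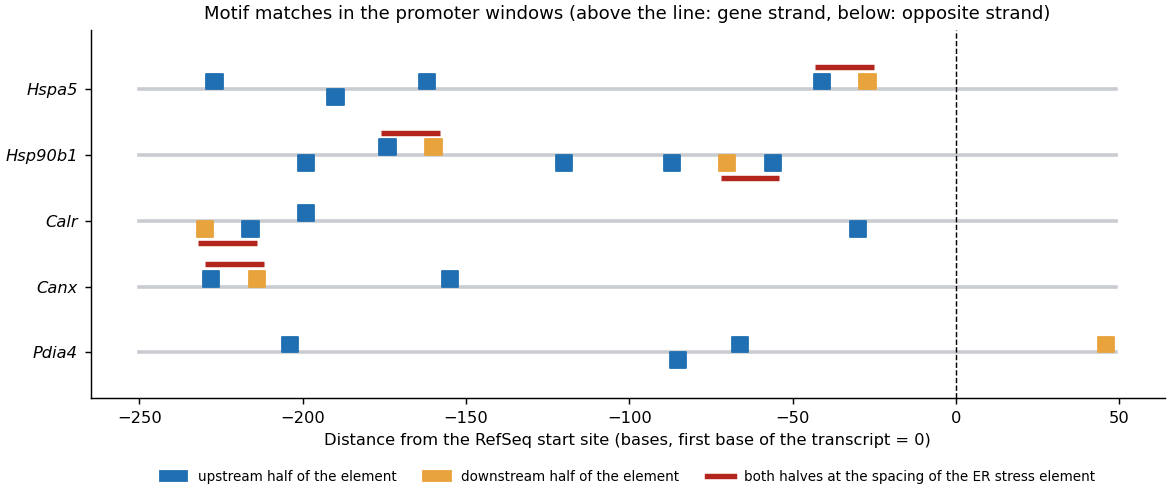
Matches in the promoter windows of the 5 genes, by distance in bases from the RefSeq start site at 0. Blocks above a line are on the gene strand and blocks below on the opposite strand. Bars show the complete ER stress element, its parts at a gap of 9 bases, which occur once in Hspa5, Calr and Canx, as a pair in Hsp90b1 and not in Pdia4.

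Over the whole table, summed FPKM ran from 588250 to 764988, and the depth in fragments is unknown, so no counting error can be given. Control 8 h replicate 2 stood apart from the rest, with the lowest sum, where the next was 690766, and the most genes at 1 FPKM, 12224 where the next highest was 11600. It was also the lowest of its group for all 5 folding genes. Fold changes, shares and ratios that use the 8 h controls are therefore also given without it.

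After 2 h of tunicamycin no change in any of the 5 genes passed the test. None was called (0 of 5, limma adjusted p under 0.05), where 0.556% of all genes tested were called at this time. At an unadjusted limma p under 0.05 the count was also 0 of 5, beside 849 of the 11699 genes tested. In none of the 5 did all 3 treated libraries lie above all 3 controls, as they did in 10.6% of all genes. The median log2 fold change over the 5 was 0.04, beside −0.01 over all genes tested. All log2 fold changes are on the scale log2(FPKM + 1).

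The estimate furthest from 0 at 2 h was that of Hspa5. Its level was 1113, 979 and 1032 FPKM in the controls and 1104, 1376 and 1285 FPKM with tunicamycin. The groups overlapped, since treated replicate 1 lay below control replicate 1, and the means were 1041 ± 67.3 and 1255 ± 138 FPKM (SD, n = 3 each). The log2 fold change was 0.27 ± 0.16 (SE; 95% interval −0.11 to 0.64; limma adjusted p = 0.894). With limma's array weights, which put most weight on a few libraries, the same gene passed the threshold (log2 fold change 0.33, adjusted p = 0.0332; range over 21 alternatives 0.0332 to 1). At that setting 1741 of all genes were called at 2 h, 897 higher and 844 lower, against 65 without weights.

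Hsp90b1 stood at 1323, 1010.0 and 907 FPKM in the 2 h controls and at 970.0, 1284 and 1178 FPKM with 2 h of tunicamycin. The 3 treated libraries lay within the range of the controls, with means of 1080.3 ± 217 and 1144 ± 159.7 FPKM (SD, n = 3 each) and a log2 fold change of 0.09 (95% interval −0.28 to 0.46). The lectin chaperones also overlapped between the groups. Calr was 684 ± 19.9 FPKM in control and 706 ± 45.8 FPKM with tunicamycin, and Canx 516 ± 45.7 and 531 ± 40.5 FPKM (SD, n = 3 each). Their 95% intervals for the log2 fold change were −0.33 to 0.42 for Calr and −0.22 to 0.31 for Canx. For the disulfide isomerase Pdia4 the means differed least, 144 ± 6.96 and 145 ± 6.07 FPKM (SD, n = 3 each), with an interval of −0.29 to 0.30. In all 5 genes tunicamycin 2 h replicate 1 was the lowest library of its group.

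**Figure D2:**
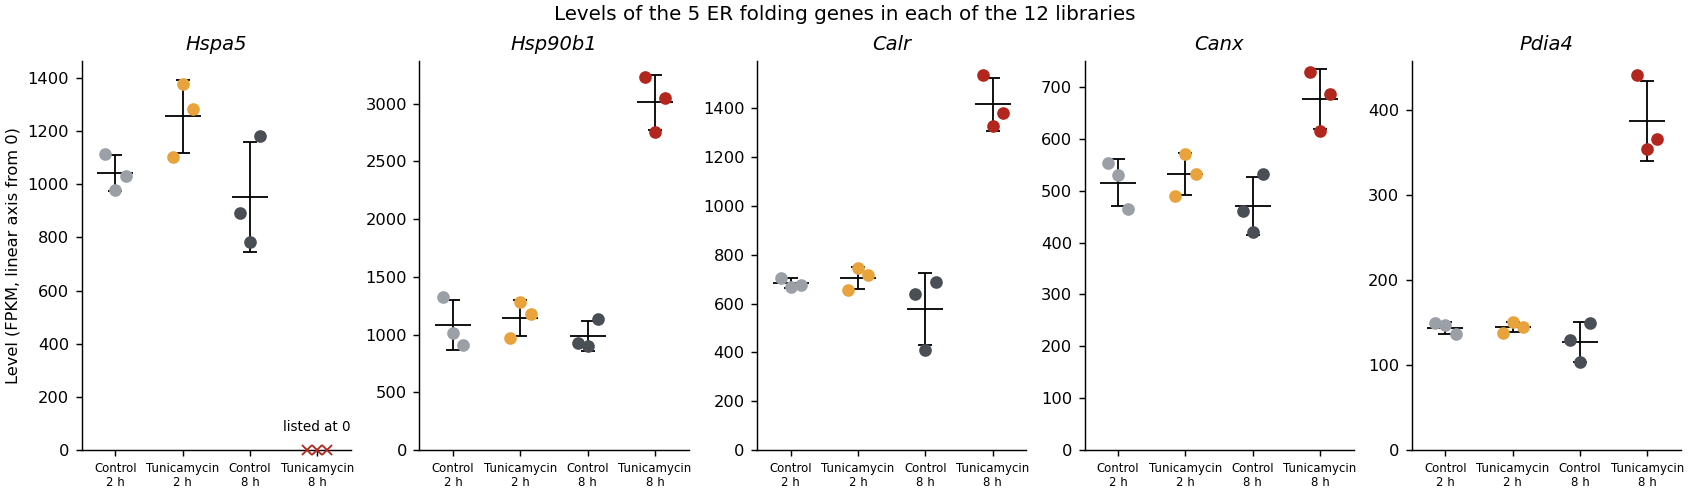
FPKM (linear axes from 0) of the 5 genes in each library, as points by group; horizontal marks and whiskers are the mean and SD of 3 libraries. The 3 libraries at 8 h of tunicamycin lie above all others for Hsp90b1, Calr, Canx and Pdia4, and crosses mark the 3 in which Hspa5 is listed at 0.

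By 8 h the ER folding genes with a usable value had all risen. Hsp90b1 and Pdia4 rose about 3.05-fold and 3.04-fold, Calr 2.50-fold and Canx 1.44-fold on the log2(FPKM + 1) scale. Thus 4 of 4 were called higher (limma adjusted p under 0.05), where 18.4% of all genes tested were called higher at this time, and the median log2 fold change was 1.46 over the 4 beside −0.03 over all genes. In each of the 4, all 3 treated libraries lay above all 3 controls, as in 22.4% of all genes. As these are bulk libraries of RNA, a change in the cells present and a change in RNA per cell cannot be told apart.

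The chaperone Hsp90b1 moved from among the 74th to 106th most abundant entries of the table in the 8 h controls to the 11th or 12th. Its level was 925, 902 and 1138 FPKM in the controls and 3226, 2755 and 3050.1 FPKM with 8 h of tunicamycin. The lowest treated library was far above the highest control, and the means were 988 ± 129.9 and 3011 ± 238 FPKM (SD, n = 3 each). The log2 fold change was 1.61 ± 0.17 (SE; 95% interval 1.24 to 1.98; limma adjusted p = 4.56e-05), and 157 of 11731 genes had a larger one.

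Pdia4 was the least abundant of the 5 genes and rose by nearly the same factor as Hsp90b1. It measured 129, 103 and 149.8 FPKM in the 8 h controls and 441, 355 and 366 FPKM with tunicamycin. No treated library came near the controls, with means of 128 ± 23.3 and 387 ± 47.1 FPKM (SD, n = 3 each). The log2 fold change was 1.60 ± 0.13 (SE; 95% interval 1.31 to 1.90; limma adjusted p = 1.05e-05), with 160 genes above it. Its window held no complete ER stress element, and that of Canx, which rose least, held 1; over 4 genes this is a description only.

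The 2 lectin chaperones rose by different amounts. Calr, the soluble one, measured 639, 409 and 687 FPKM in the 8 h controls and 1537, 1328 and 1382 FPKM with tunicamycin. The treated libraries were all above the controls, among which replicate 2 was low, and the means were 578 ± 149 and 1416 ± 108 FPKM (SD, n = 3 each). The log2 fold change was 1.32 ± 0.17 (SE; 95% interval 0.94 to 1.70; limma adjusted p = 0.000206). Canx, the membrane-bound one, measured 460.0, 419.8 and 531 FPKM in the controls and 729, 615 and 685 FPKM with tunicamycin. The groups again did not overlap, but the gap was narrower, from means of 470.4 ± 56.6 to 676 ± 57.3 FPKM (SD, n = 3 each). The log2 fold change was 0.53 ± 0.12 (SE; 95% interval 0.26 to 0.79; limma adjusted p = 0.00604), and 1519 genes had a larger one. The 95% intervals of Calr and Canx do not overlap, and no test of the difference between the 2 genes was made.

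Without control 8 h replicate 2 the rises were somewhat smaller and all 4 were still called. The log2 fold changes were 1.55 for Hsp90b1, 1.46 for Pdia4, 1.09 for Calr and 0.45 for Canx (limma adjusted p from 7.45e-06 to 0.00974). More of all genes were also called higher at that setting, 2506 against 2163 with all libraries.

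**Figure D3:**
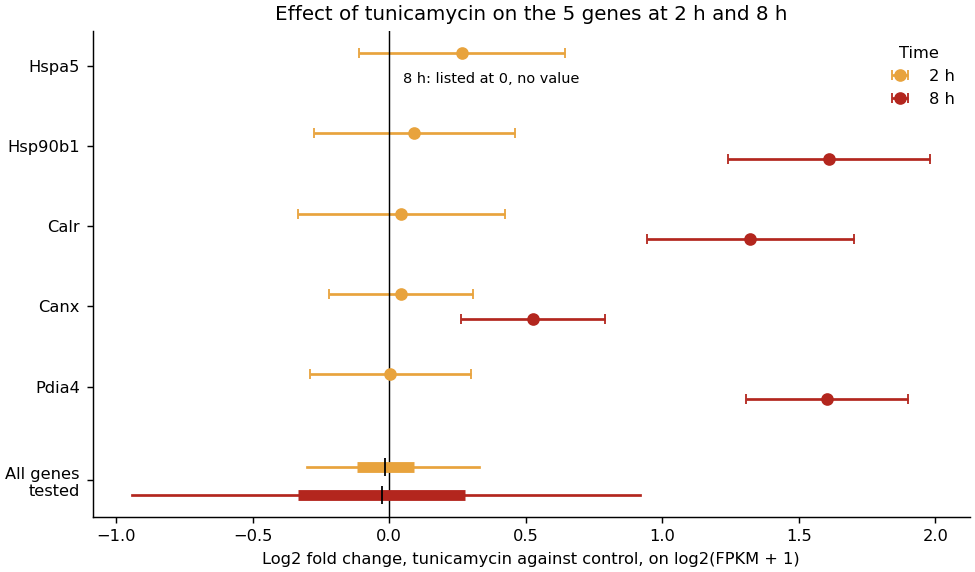
Log2 fold change of tunicamycin against control, on log2(FPKM + 1), for each gene at 2 h and 8 h, as points with 95% intervals from limma. The bottom rows show all genes tested, with the median as a tick, the middle 50% as a thick bar and the 5th to 95th percentile as a line. Every 2 h interval includes 0, and the 8 h intervals of Hsp90b1, Calr, Canx and Pdia4 lie above it.

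Hspa5 gave no 8 h level. Each of the 3 libraries treated for 8 h lists it at exactly 0, while the 8 h controls read 893, 784 and 1183 FPKM, and no value lay between. An exact 0 in a table of this kind can be a failed estimate, so the 3 values were treated as missing and neither a rise nor a fall of Hspa5 at 8 h is stated. Of the 125 genes that reached 1000 FPKM in some library, 2 were listed at 0 in at least 1 library, Hspa5 among them. Hspa5 was the only gene at 0 in all 3 of these libraries and at 10 FPKM or more in the other 9. The other groups had 0, 0 and 1 such genes.

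**Figure D4:**
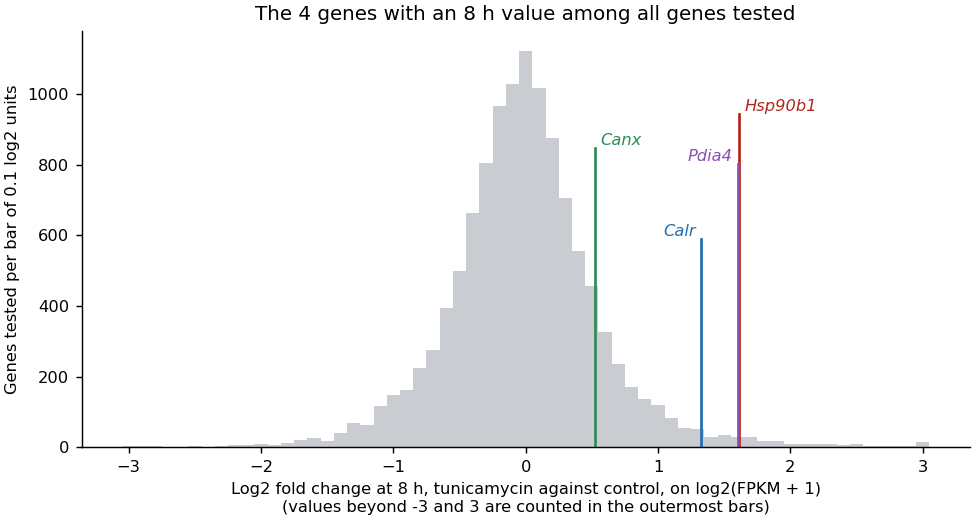
Histogram of the log2 fold changes at 8 h, on log2(FPKM + 1), of the genes tested, with lines at the 4 folding genes that have a value. Canx at 0.53 lies on the upper slope of the histogram, and Calr at 1.32, Pdia4 at 1.60 and Hsp90b1 at 1.61 lie in its upper tail.

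The effect of tunicamycin was larger at 8 h than at 2 h for 3 of the 4 genes with a value (limma interaction, adjusted p under 0.05), where 8.03% of all genes were called in this direction. The difference between the log2 fold changes was 1.60 ± 0.19 for Pdia4, 1.52 ± 0.23 for Hsp90b1 and 1.28 ± 0.24 for Calr (SE; limma adjusted p = 0.000359, 0.00192 and 0.00598). For Canx it was 0.48 ± 0.17 (SE; 95% interval 0.11 to 0.85; limma adjusted p = 0.0872), which missed the threshold after adjustment and passed it without control 8 h replicate 3 (0.57, limma adjusted p = 0.0427; range over 20 alternatives 0.0427 to 0.198). Without control 8 h replicate 2 the differences were 1.46 for Pdia4, 1.46 for Hsp90b1 and 1.05 for Calr, all 3 still called. For Canx the difference was then 0.40 (limma adjusted p = 0.0841). More of all genes were also called in this direction at that setting, 1345 against 936 with all libraries.

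Between the controls at 8 h and at 2 h, which differ in time without the drug, no change passed the test. None of the 5 was called (0 of 5 at an adjusted and at an unadjusted limma p under 0.05), and neither was any of the 11764 genes tested (0%), of which 387 had an unadjusted p under 0.05. All 5 estimates were below 0, from −0.12 for Hsp90b1 to −0.28 for Calr, although those of Hsp90b1 and Hspa5 lay above 0 with array weights and that of Hsp90b1 also with quantile normalization, and the 95% interval for Calr was −0.66 to 0.10. Without control 8 h replicate 2 the estimates were −0.06 for Hsp90b1, −0.04 for Calr, −0.02 for Hspa5, −0.05 for Pdia4 and −0.06 for Canx. Without control 8 h replicate 3 those for Hsp90b1 and Calr were −0.22 and −0.42. The latter setting also gave −0.31 for Hspa5, −0.32 for Pdia4 and −0.23 for Canx, none of them called (limma adjusted p from 0.292 to 0.437).

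The order of the group means was the same in the 4 genes with a value in every group, with control 8 h lowest, then control 2 h, tunicamycin 2 h and tunicamycin 8 h. Neighbours among the first 3 groups were not called different in any of them. The last step, from 2 to 8 h of tunicamycin, was called in 4 of 4 (limma adjusted p under 0.05), where 14.2% of all genes were called higher. Its log2 size was 1.41 ± 0.13 for Pdia4, 1.40 ± 0.17 for Hsp90b1 and 1.00 ± 0.17 for Calr (SE; limma adjusted p = 2.99e-05, 0.000139 and 0.00143). For Canx it was 0.35 ± 0.12 (SE; limma adjusted p = 0.0494) and the call was lost in 12 of 21 alternative settings, over which the adjusted p ran from 6.92e-06 to 0.166, with 0.0876 under the replicate block. Hspa5, over the 3 groups with a value, had the same order, and its neighbours were not called different either.

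Levels relative to Hsp90b1 in the same library show which genes kept pace with it. The Pdia4 level was 0.136 ± 0.0203 of that of Hsp90b1 in control at 2 h, 0.128 ± 0.0133 after 2 h of the drug, 0.129 ± 0.0129 in control at 8 h and 0.128 ± 0.00842 after 8 h of the drug (SD, n = 3 each). These ratios overlapped in all groups. The Canx level was 0.485 ± 0.0582, 0.467 ± 0.0333 and 0.477 ± 0.0179 of that of Hsp90b1 in the first 3 groups, and 0.225 ± 0.00132 with tunicamycin at 8 h (SD, n = 3 each). The last 3 libraries, at 0.226, 0.223 and 0.225, were below the other 9, the lowest of which was 0.418. Calr lay between, with an 8 h ratio of 0.583 ± 0.121 in control and 0.471 ± 0.0154 in treated cells (SD, n = 3 each), and there control replicate 2, at 0.453, was as low as the treated libraries. Hspa5 stood near Hsp90b1 wherever it had a value, at 0.982 ± 0.149, 1.10 ± 0.0343 and 0.958 ± 0.0857 of its level (SD, n = 3 each). Without control 8 h replicate 2 the control ratios at 8 h were 0.136 for Pdia4, 0.482 for Canx, 0.648 for Calr and 1.00 for Hspa5 (n = 2). No test was made of these ratios.

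**Figure D5:**
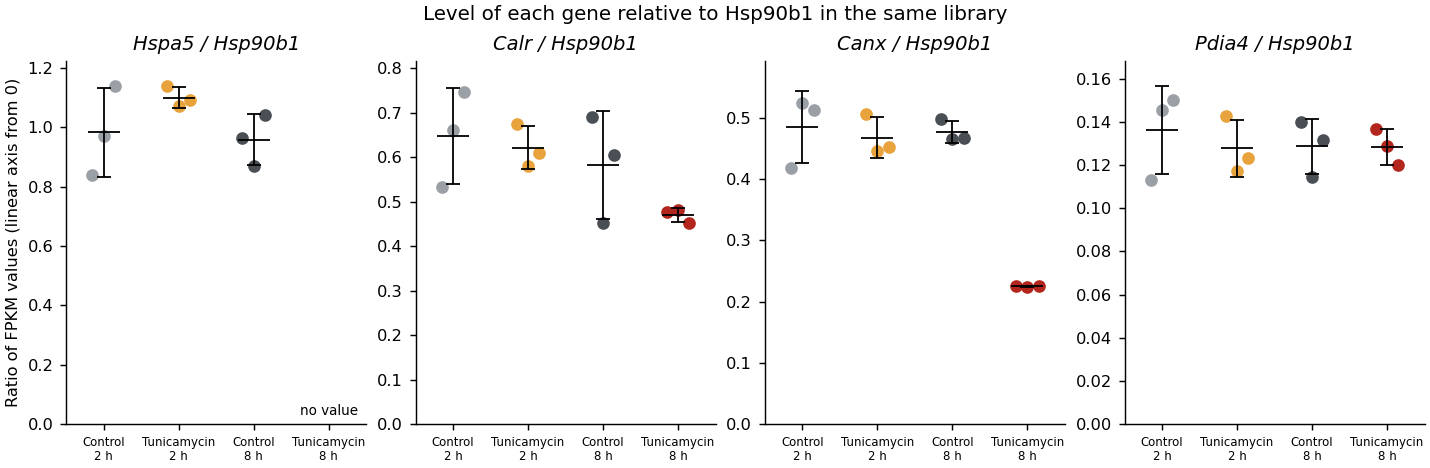
Ratio of the FPKM of Hspa5, Calr, Canx and Pdia4 to that of Hsp90b1 in the same library, by group, with the mean and SD of 3 libraries. The Pdia4 ratio stays between 0.113 and 0.150 in all 12 libraries, and the Canx ratio at 8 h of tunicamycin is 0.225 ± 0.00132 against 0.477 ± 0.0179 in control.

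Together Hsp90b1, Calr, Canx and Pdia4 held 0.315% ± 0.0339 of all FPKM summed over tested genes in the 8 h controls and 0.776% ± 0.0528 after 8 h of tunicamycin (SD, n = 3 each), and the control share was 0.316% without replicate 2 (n = 2). At 2 h the shares were 0.332% ± 0.0283 and 0.365% ± 0.0352 (SD, n = 3 each), which overlapped. In 3 of the 4 groups the same library was lowest for every one of these genes: replicate 1 of tunicamycin 2 h, replicate 2 of control 8 h and replicate 2 of tunicamycin 8 h. In control 2 h the lowest was replicate 2 for Calr and replicate 3 for Hsp90b1, Canx and Pdia4.

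Among 11465 other genes, the profile most like the mean standardized profile of Hsp90b1, Calr, Canx and Pdia4 over the 12 libraries was that of ENSRNOG00000002100 (Pearson r = 0.996), at 78.8 ± 8.41 FPKM in the 8 h controls and 123 ± 7.30 FPKM in the treated 8 h libraries (SD, n = 3 each). Next was ENSRNOG00000014165 (Pearson r = 0.996), from 141 ± 22.3 to 249 ± 19.6 FPKM (SD, n = 3 each). Without control 8 h replicate 2 the control means of these genes were 83.3 and 153 FPKM (n = 2). All of these profiles share the step at 8 h in the same 12 libraries, and no test was made. The files do not pair these identifiers with names.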

How the data were processed

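Transcript levels came from 12 libraries made from total RNA after ribosomal depletion with a stranded kit, per the labels' protocols. The authors deposited FPKM values for 32402 Ensembl genes; the submitters' processing notes list build rn6 and, with no role or order, Cuffdiff 2.1.1, Cufflinks 2.2.1, Cuffnorm, FastQC 0.10.1 and TopHat2 2.0.4. Median-ratio factors between libraries ran from 0.996 to 1.01. How fragments shared with near-identical copies were assigned is not stated in the sources at hand; RefSeq lists pseudogenes of Hsp90b1 and Pdia4, so their levels are uncertain to that extent.

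The 12056 genes that averaged 1 FPKM or more were transformed to log2(FPKM + 1) and fitted with limma 3.58.1 (R 4.3.3), using 4 group means and a variance trend, with 8 residual and 2.28 prior degrees of freedom. An exact 0 in a gene at 10 FPKM or more in another library was treated as missing (587 genes). Adjusted p-values are Benjamini-Hochberg over all genes with a value. The test was checked on simulated data. These were independent normal values with an equal spread in all libraries, so the check does not cover libraries of unequal spread. The symbols of the 5 genes came with the list that defined them; the RefSeq table of 47357 genes matched 0 identifiers. The naming rule took all 5 genes, called genes of the ER list (none could be paired) and the 5 profiles most alike, of which 2 are printed. Members and lists were chosen with earlier results of these data known. Alternatives were 2 other pseudocounts, other filters, zeros kept, fewer groups fitted, a replicate block, quantile normalization, array weights and each library left out.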

Additional observations from a re-analysis of the deposited data

Results flagged for a closer look

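For 3 of the 4 genes with a value the response to tunicamycin was larger at 8 h than at 2 h by the interaction test in limma. Of all genes tested, 8.03% were called in this direction. Hspa5 had no value in this test. The difference in log2 fold change was 1.60 for Pdia4 (adjusted p = 0.000359), 1.52 for Hsp90b1 (adjusted p = 0.00192) and 1.28 for Calr (adjusted p = 0.00598). In each the 3 treated libraries at 8 h lay above all 3 controls, as in 22.4% of all genes, whereas the groups overlapped at 2 h.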

How the results depend on the processing

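The 8 h rises of Hsp90b1, Calr, Canx and Pdia4 kept their direction and their call in all 21 alternatives. In that order, their log2 fold changes were 1.46 to 1.72, 1.08 to 1.47, 0.40 to 0.62 and 1.34 to 1.73. With exact zeros kept as values Hspa5 was called lower at 8 h, which rests on its 3 zeros. At 2 h the number of the 5 genes called was 0 in 20 of 21 alternatives and 1 with array weights, where tunicamycin 8 h replicate 3 had a weight of 60.3. Estimates near 0 changed sign without a call. At 2 h this held for Pdia4 with array weights (−0.0086), and single libraries left out gave −0.035 to 0.037 for Pdia4, −0.029 to 0.10 for Canx and −0.025 to 0.25 for Hsp90b1. Between the controls it held for Hsp90b1 with quantile normalization (0.018) and array weights (0.043), with −0.23 to 0.038 for single libraries left out, and for Hspa5 with array weights (0.15).

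Over all genes, the 2 h count was 65, and 34 with only the compared groups fitted, 29 with the replicate block, 1741 with array weights and 13 to 100 with single libraries left out. The 8 h count was 4087, and 2650 with only the compared groups fitted and 3114 to 5062 with single libraries left out. The interaction count was 1673, and 2793 with array weights and 1086 to 2643 with single libraries left out. The count from 2 to 8 h of tunicamycin was 3505, and 9063 with array weights and 2525 to 5024 with single libraries left out. Between the controls the count was 0, and 3 with zeros kept, 2 with only the compared groups fitted, 3 with array weights and 0 to 4 with single libraries left out. The cause of these shifts was not tested. Fitting only the compared groups does not apply to the interaction.

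Whether libraries with the same replicate number belong together was looked at by correlating their deviations from the group means. The correlation was over 0.1 in 6 of 18 pairs with the same number (−0.32 to 0.28). It was also over 0.1 in 12 of 36 pairs with unlike numbers (−0.50 to 0.54). Of the 12 libraries, 4 correlated best with their own number. With 3 libraries a group, this check cannot exclude pairing by experiment. The replicate block left the calls of the 5 genes as they were at 2 h (0) and 8 h (4), and moved the count of all genes at 2 h to 29. Depth is unknown, which leaves the counting error of these abundant genes unstated.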

Other observations

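The complete ER stress element was found in 22 RefSeq promoter windows. Besides Hspa5, Hsp90b1, Calr and Canx and the listed Dnajc3, Creld2, Ero1b and Xbp1, they include Derl3, a gene of ER-associated degradation, and Calr4, a relative of calreticulin; both were singled out after the windows had been seen. Their levels in these cells could not be read.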
